A study of Mus musculus with 12 samples.

Results

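Nonsense-mediated decay (NMD) factors were followed in mouse pancreatic islets after partial loss of beta cells. The set holds 9 genes, chosen by name as known components of the pathway: Upf1, Upf2, Upf3a, Upf3b, Smg1, Smg5, Smg6, Smg8 and Smg9. The choice was made with earlier results of these data known, which limits how its counts compare with those of all genes. All 9 were found among the 48709 genes of the deposited count table, and all 9 were among the 17294 genes with enough counts to be tested. Libraries were made from islets of female mice, 3 in each of 4 groups. The treated groups had received diphtheria toxin (DT) and carried the labels DT 1 DPA, DT 3 DPA and DT 5 DPA, read here as days post-ablation. The fourth group, CTRL, had no treatment. All 4 groups shared the genotype NSG RIP-DTR Htz, so the controls also carried the transgene. NSG mice are immunodeficient and lack mature lymphocytes. In RIP-DTR mice the rat insulin promoter drives the diphtheria toxin receptor, which makes beta cells sensitive to the toxin. The age of the mice and the dose of toxin were not given in the labels, and a second ablation method named for the study, STZ, was not analysed here.

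NMD removes mRNAs on which a ribosome terminates too early, and it also sets the level of many normal mRNAs. When an exon junction complex remains downstream of the stop codon, UPF3B and UPF2 connect it to the RNA helicase UPF1. The kinase SMG1, held in check by SMG8 and SMG9, then phosphorylates UPF1. Phosphorylated UPF1 recruits SMG6, the endonuclease that cuts the mRNA near the stop codon, and SMG5, which brings in deadenylation and decapping enzymes. The pathway acts only on mRNAs that are being translated, and diphtheria toxin blocks translation by inactivating the elongation factor EEF2 in cells that take it up. Several NMD factor mRNAs are themselves NMD substrates in mammalian cells.

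The genes lie apart in the genome, in the GENCODE annotation of mm10. Upf3b is at chrX:37091678-37110322, Upf3a at chr8:13785615-13799193, Upf2 at chr2:5951469-6056703 and Upf1 at chr8:70331525-70353278. Smg5 is at chr3:88336260-88362338, Smg6 at chr11:74925823-75164448, Smg1 at chr7:118131308-118243670, Smg8 at chr11:87077732-87086774 and Smg9 at chr7:24399619-24422778.

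Total counts were between 29867083 and 50012558 per library, and the lowest count of any member in any library was 443. The labels do not say whether each library came from its own animal. The p-values therefore rest on the spread of these libraries alone, and part or all of that spread may be technical. Beta cell markers were present at high levels in every library, and none of the islet, acinar, duct, macrophage, stromal or endothelial markers examined was at 0 in any library. Their summed levels moved with the groups. The 7 beta cell markers summed to 105089 to 161381 CPM (counts scaled to each library's size) at DT 1 DPA against 181344 to 201832 CPM in CTRL, and 5 of 7 were lower. The 7 macrophage markers summed to 79.4 to 94.5 CPM at DT 1 DPA against 112 to 301 CPM in CTRL, with 6 of 7 lower. The 4 endothelial markers summed to 335 to 376 CPM against 445 to 564 CPM, with 3 of 4 lower, and the 6 stromal markers to 758 to 868 CPM against 734 to 2011 CPM, with 2 of 6 lower. The 3 duct markers summed to 106 to 118 CPM at DT 1 DPA against 156 to 159 CPM in CTRL, with 2 of 3 lower. No marker of the 5 for alpha cells, the 3 for delta and PP cells or the 7 for acinar cells passed the test at this time. Mitochondrial genes took 1.61% to 1.76% of counts at DT 1 DPA against 2.32% to 2.64% in CTRL. Acinar markers summed to 4169.6 to 39699 CPM at DT 1 DPA and 8188 to 52449 CPM in CTRL, with overlap. CTRL replicate 3 had the lowest acinar, macrophage, stromal and endothelial sums of its group, 8188 CPM of acinar markers against 30444 and 52449 CPM in the other 2, and the values that change without it are given beside the results.

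Promoters are shown for the 4 members with the largest differences at DT 1 DPA, and whether these genes share regulation was not tested. Each sequence is the stretch before the annotated start on the gene's own strand, from RefSeq on GRCm38.p6, in which all 9 members were matched. For Smg5 it ends where an exon of the divergent neighbour Tmem79 begins. Capitals mark TCGCGAGA on either strand, which is part of the longer palindrome known as the element bound by the transcription factor BANP.
Upf3b, chrX:37110323-37110572, minus strand: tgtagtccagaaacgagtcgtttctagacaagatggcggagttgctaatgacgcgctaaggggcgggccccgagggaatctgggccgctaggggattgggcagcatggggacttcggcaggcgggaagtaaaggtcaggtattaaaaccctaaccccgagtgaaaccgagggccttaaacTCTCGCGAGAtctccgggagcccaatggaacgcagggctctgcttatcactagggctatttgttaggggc
Upf3a, chr8:13785365-13785614, plus strand: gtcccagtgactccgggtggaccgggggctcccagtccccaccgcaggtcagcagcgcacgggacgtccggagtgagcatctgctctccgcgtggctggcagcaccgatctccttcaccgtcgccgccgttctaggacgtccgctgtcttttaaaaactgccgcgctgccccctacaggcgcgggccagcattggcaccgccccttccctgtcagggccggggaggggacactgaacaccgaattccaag
Upf2, chr2:5951219-5951468, plus strand: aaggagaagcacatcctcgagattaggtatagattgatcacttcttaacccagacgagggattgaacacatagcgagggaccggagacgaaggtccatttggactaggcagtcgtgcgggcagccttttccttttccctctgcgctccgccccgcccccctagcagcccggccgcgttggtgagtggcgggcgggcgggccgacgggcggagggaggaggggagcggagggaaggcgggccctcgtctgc
Smg5, chr3:88336149-88336259, plus strand: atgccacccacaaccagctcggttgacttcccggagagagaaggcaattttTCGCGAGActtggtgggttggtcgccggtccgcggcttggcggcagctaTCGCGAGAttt
TCGCGAGA was chosen for a search of both strands after these sequences had been read. Within 250 bases upstream of the start it lay in 2 of the 9 members, Upf3b and Smg5, and in 0.858% of 32851 promoter windows of the same length. Among the 18364 windows with at least the GC content of the lowest member, 50.8%, it lay in 1.45%. In Upf3b 2 overlapping matches, 1 on each strand, began 70 and 68 bases upstream of the start and together make up the palindrome. In Smg5 2 separate matches began 60 and 11 bases upstream, and neither extends to the palindrome. The other 7 members, Upf3a and Upf2 among them, had no match in this window. On both strands, GGGCGG lay in 7 of 9 members and in 32.7% of all windows, or 53.9% of those with at least that GC content, and CCAAT lay in 4 of 9 members and in 33.8% of windows. TGACGTCA, TGATGCAA and CACGTG, which lay in 1.55%, 0.791% and 6.02% of windows, were found in no member. These matches describe the letters of the windows and are not evidence of binding.

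The first comparison asked how the members stood 1 day after ablation. Of the 9 members, 6 rose at DT 1 DPA against CTRL and none fell, at an adjusted p under 0.05 in edgeR's quasi-likelihood test. Across all genes tested, 29.2% rose and 22.4% fell, so that 51.6% changed in this comparison. The 6 were Upf1, Upf2, Upf3a, Upf3b, Smg5 and Smg6, and the 3 that did not pass were Smg1, Smg8 and Smg9, the kinase and its regulators. The median log2 fold change of the 9 members was 0.50, against -0.049 for all genes tested. The islets are bulk samples in which fewer cells of a type and less RNA per cell cannot be told apart. The part of the marker and mitochondrial shifts given above in these differences was not tested.

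**Figure D1:**
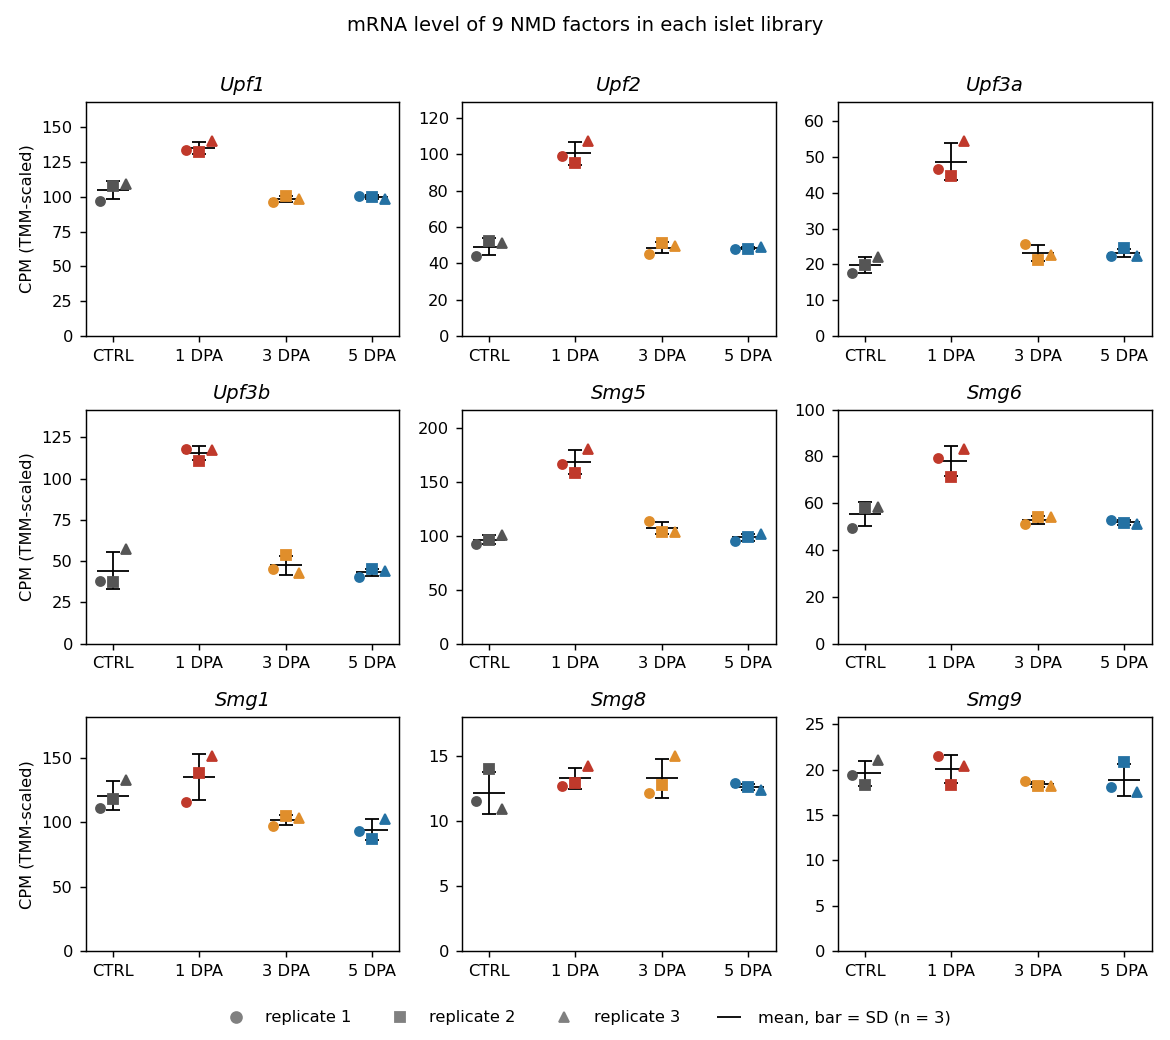
CPM of each of the 9 NMD factors in CTRL and at DT 1, 3 and 5 DPA; each symbol is 1 of 3 libraries, the horizontal line their mean and the bar the SD. For Upf1, Upf2, Upf3a, Upf3b, Smg5 and Smg6 the DT 1 DPA points lie above all CTRL points, as for Upf2 at 95.2 to 107 CPM against 44.1 to 52.5 CPM, and the DT 3 and 5 DPA points lie near CTRL.

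The genes of the UPF bridge between the exon junction complex and UPF1 showed the largest differences. Upf3b, which encodes the main junction-binding UPF3 protein, had 118, 111 and 117 CPM in DT 1 DPA replicates 1 to 3, against 38.2, 37.4 and 57.3 CPM in CTRL replicates 1 to 3. Every DT 1 DPA library lay far above every CTRL library, and CTRL replicate 3 was the highest of its group. Its mean was 115 ± 4.10 CPM at DT 1 DPA against 44.3 ± 11.3 CPM in CTRL (SD, n = 3 each), a 2.60-fold difference with a log2 fold change of 1.38 ± 0.15 (SE; edgeR adjusted p = 1.57e-05). Without CTRL replicate 3 the log2 fold change was 1.61.

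Upf3a, the paralog of Upf3b, is a weaker activator of decay and has been reported to repress NMD in mouse. It had 46.7, 44.8 and 54.5 CPM at DT 1 DPA, against 17.7, 19.9 and 22.2 CPM in CTRL. The groups did not overlap, and the lowest treated library was above the highest control library by more than either group's spread. The log2 fold change was 1.29 ± 0.11 (edgeR adjusted p = 1.86e-06), a 2.44-fold difference. Upf2, the adaptor that joins UPF3 proteins to UPF1, had 99.1, 95.2 and 107 CPM at DT 1 DPA, against 44.1, 52.5 and 51.0 CPM in CTRL. These libraries were again apart, with little spread in either group, and the 2.05-fold difference gave a log2 fold change of 1.03 ± 0.076 (edgeR adjusted p = 8.15e-07). Upf1, the helicase at the centre of the pathway, had 133, 132 and 140.3 CPM at DT 1 DPA, against 97.3, 108 and 109 CPM in CTRL. The groups did not overlap, but the rise was the smallest of the 6, 1.29-fold, with a log2 fold change of 0.37 ± 0.055 (edgeR adjusted p = 0.000152). With library sizes taken without the 50 most abundant genes and no TMM scaling, a setting chosen after seeing the data, it was 0.24 (edgeR adjusted p = 0.00252). Of Upf1's annotated exon bases 1.47% are shared with Cers1 and Gdf1 on the opposite strand, and of those of Smg6 2.87% with Gm12333 and Srr.

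Both effectors downstream of phosphorylated UPF1 rose as well. Smg5, the adaptor to deadenylation and decapping, had 166, 158 and 181 CPM at DT 1 DPA, against 92.6, 95.9 and 101 CPM in CTRL. The treated libraries all lay above the controls, and the 1.75-fold difference gave a log2 fold change of 0.81 ± 0.064 (edgeR adjusted p = 1.39e-06). Smg6, the endonuclease, had 79.4, 71.0 and 83.4 CPM at DT 1 DPA, against 49.4, 57.8 and 58.5 CPM in CTRL. The groups were apart here too, with a 1.41-fold difference and a log2 fold change of 0.50 ± 0.076 (edgeR adjusted p = 0.000196). The same 6 members were those whose DT 1 DPA libraries all lay above all CTRL libraries, as did 31.1% of all genes tested, and no member lay wholly below CTRL, as 23.5% of all genes did.

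The kinase complex gave no call at DT 1 DPA. Smg1, the kinase, had 116, 138 and 151 CPM at DT 1 DPA, against 111, 118 and 133 CPM in CTRL. The groups overlapped, and the log2 fold change was 0.16 ± 0.10 (edgeR adjusted p = 0.189). DT 1 DPA replicate 1 was the low library of its group, and without it Smg1 passed the test at 0.26 (edgeR adjusted p = 0.0378), which made 7 members higher. Smg8, which restrains the kinase, had 12.7, 12.9 and 14.2 CPM at DT 1 DPA, against 11.5, 14.0 and 10.9 CPM in CTRL. Smg9, its partner, had 21.5, 18.3 and 20.4 CPM at DT 1 DPA, against 19.4, 18.3 and 21.1 CPM in CTRL. Both genes overlapped between the groups and had log2 fold changes of 0.13 ± 0.11 and 0.034 ± 0.09 (edgeR adjusted p = 0.358 and 0.765).

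**Figure D2:**
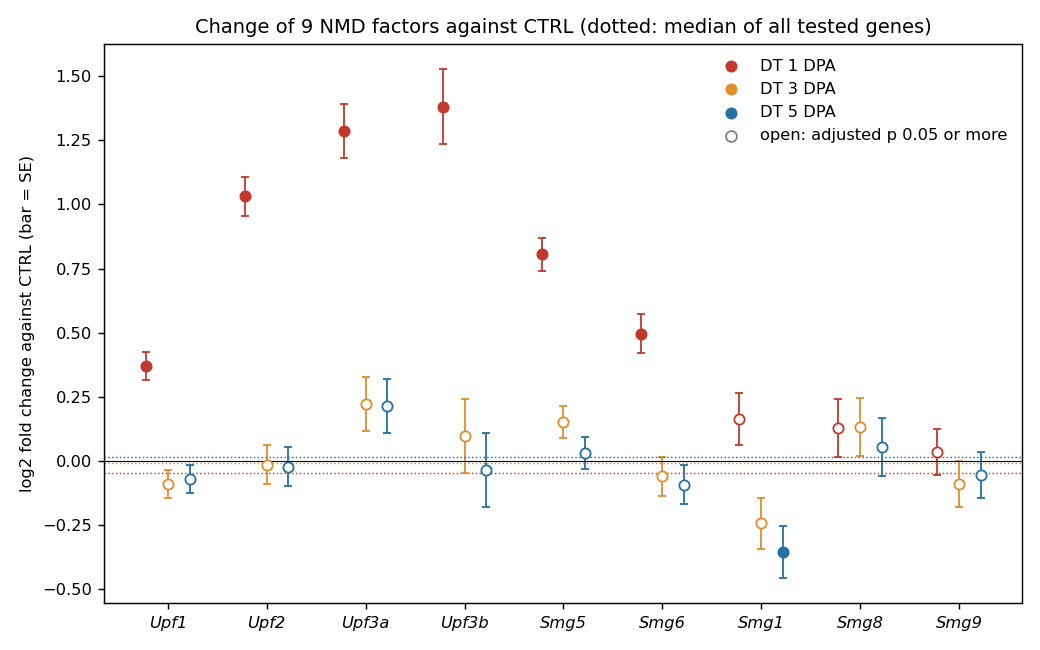
Log2 fold change of each NMD factor against CTRL at DT 1, 3 and 5 DPA, with error bars of 1 SE from edgeR; filled points passed an adjusted p under 0.05. At DT 1 DPA 6 of the 9 lie between 0.37 and 1.38 and are filled, at DT 3 DPA none is filled, and at DT 5 DPA Smg1 is, at -0.36.

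At DT 3 DPA no member differed from CTRL by edgeR's test, while 12.6% of all genes tested did, 10.2% higher and 2.37% lower, and DESeq2 also called 0. At an unadjusted p under 0.05 there were 2, Smg5 and Smg1. Smg5 had 114, 104 and 104 CPM at DT 3 DPA, against 92.6, 95.9 and 101 CPM in CTRL, all treated libraries being higher (log2 fold change 0.15 ± 0.064, edgeR adjusted p = 0.162). Smg1 had 97.4, 105 and 103 CPM at DT 3 DPA, against 111, 118 and 133 CPM in CTRL, all treated libraries being lower (log2 fold change -0.24 ± 0.10, edgeR adjusted p = 0.15). These were the only members whose groups did not overlap, as held for 17.9% of all genes tested in the higher and 11.1% in the lower direction. Without DT 1 DPA replicate 3, a library of neither group compared, Smg1 passed the test at -0.28 (edgeR adjusted p = 0.0462). Upf3b had 45.4, 53.7 and 43.1 CPM at DT 3 DPA, inside the range of the control libraries, and its log2 fold change was 0.096 ± 0.14 (edgeR adjusted p = 0.745). Without CTRL replicate 3 Upf3b passed the test at 0.33 (edgeR adjusted p = 0.0358). Upf3a, at 25.8, 21.3 and 22.6 CPM, had a log2 fold change of 0.22 ± 0.11 (edgeR adjusted p = 0.224). For Upf1, Upf2, Smg6, Smg8 and Smg9 the log2 fold changes lay between -0.092 and 0.13. The median of the 9 members was -0.015, against -0.0069 for all genes tested. At DT 3 DPA alpha cell markers summed to 30074.7 to 45249.5 CPM, against 20366.5 to 26436.2 CPM in CTRL, and 0 of 5 were called. Acinar markers summed to 3472 to 10028 CPM, against 8187.8 to 52448.5 CPM in CTRL, and 0 of 7 were called. Called were 1 of 7 beta cell markers, lower, and 1 of 3 delta and PP cell markers, higher. No macrophage, stromal, endothelial or duct marker was called. The part of these shifts in the members' values was not tested.

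At DT 5 DPA only Smg1 differed from CTRL. Its libraries had 93.2, 86.9 and 103 CPM at DT 5 DPA, against 111, 118 and 133 CPM in CTRL. All treated libraries lay below all controls, and Smg1 fell by 0.36 on the log2 scale (SE 0.10, edgeR adjusted p = 0.0492). Across all genes 2.67% fell and 5.87% rose, 8.54% in all. The call lay at the threshold. It ended without CTRL replicate 2 or 3, DT 1 DPA replicate 2, DT 3 DPA replicate 2 or 3, or any of the 3 DT 5 DPA libraries, with edgeR adjusted p = 0.055 to 0.158 and log2 fold changes of -0.28 to -0.42. Upf3a was the only member with all DT 5 DPA libraries above CTRL, at 22.4, 24.5 and 22.4 CPM against 17.7, 19.9 and 22.2 CPM, and did not pass the test (log2 fold change 0.21 ± 0.11, edgeR adjusted p = 0.242). Groups did not overlap in the higher direction for 16.5% of all genes tested, and in the lower direction for 12.2%. At this time the macrophage markers summed to 355 to 494 CPM, against 112 to 301 CPM in CTRL, with 2 of 7 higher, and the stromal markers to 2989.9 to 4964 CPM, against 734 to 2011 CPM, with 2 of 6 higher. The 7 beta cell markers summed to 151906 to 205660 CPM, against 181344 to 201832 CPM in CTRL, with 3 of 7 lower, and the part of these shifts in the difference of Smg1 was not tested. The median of the 9 members was -0.036, against 0.014 for all genes tested.

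The libraries of DT 3 DPA were then set against those of DT 1 DPA, which tests the return directly. Of the 9 members, 7 fell and none rose, against 24.7% and 20.4% of all genes tested, or 45.1% in either direction. Upf3b fell by 1.28 on the log2 scale, Upf3a by 1.07 and Upf2 by 1.05 (edgeR adjusted p = 4.8e-05, 1.56e-05 and 2.29e-06). Smg5 fell by 0.65, Smg6 by 0.56 and Upf1 by 0.46 (edgeR adjusted p = 1.42e-05, 0.000132 and 5.21e-05). Smg1 was the seventh, with 97.4, 105 and 103 CPM at DT 3 DPA against 116, 138 and 151 CPM at DT 1 DPA, and fell by 0.41 (edgeR adjusted p = 0.00627). For these 7 every DT 3 DPA library lay below every DT 1 DPA library, as it did for 29.3% of all genes tested. Smg8 and Smg9 had log2 fold changes of 0.0027 ± 0.11 and -0.13 ± 0.09 (edgeR adjusted p = 0.986 and 0.27). The markers moved between these times as well. At DT 3 DPA against DT 1 DPA 7 of 7 macrophage, 6 of 6 stromal, 3 of 4 endothelial, 3 of 7 beta cell, 3 of 5 alpha cell, 2 of 3 delta and PP cell and 2 of 3 duct markers were higher, and 0 of 7 acinar markers were called. Macrophage markers summed to 153 to 232 CPM at DT 3 DPA against 79.4 to 94.5 CPM at DT 1 DPA, and stromal markers to 1445 to 2079 CPM against 758 to 868 CPM. Endothelial markers summed to 467 to 499.9 CPM against 335 to 376 CPM, and beta cell markers to 149438 to 186630 CPM against 105089 to 161381 CPM. Mitochondrial genes took 2.01% to 2.35% of counts at DT 3 DPA against 1.61% to 1.76% at DT 1 DPA, and the part of these shifts in the members' differences was not tested. This comparison and that of DT 1 DPA with CTRL share the DT 1 DPA libraries.

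Between DT 5 DPA and DT 3 DPA no member changed by edgeR's test, none had an unadjusted p under 0.05, and DESeq2 called 0. Log2 fold changes lay between -0.13 and 0.036, and 3.16% of all genes tested were called, 0.705% higher and 2.46% lower. Smg5 was the one member without overlap, with 95.5, 98.6 and 102 CPM at DT 5 DPA, all lower than the 114, 104 and 104 CPM at DT 3 DPA, as held for 16.5% of all genes tested. In edgeR's test of any difference over the 4 groups, 7 of the 9 members passed, against 57.4% of all genes tested. Smg8 and Smg9 did not (edgeR adjusted p = 0.656 and 0.572).

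Levels of different members were compared per transcript length, in the deposited TPM, which corrects for transcript length and library size. In CTRL islets Upf1 was the most abundant member at 49.1 ± 3.79 TPM (SD, n = 3), above all others in every library. Smg5 followed at 30.0 ± 2.49 TPM, Upf3b at 24.1 ± 7.18 TPM and Upf2 at 19.4 ± 1.58 TPM. Across libraries Upf3b overlapped both Smg5 and Upf2, although Smg5 was above Upf3b within each CTRL library. All Upf2 libraries lay above those of the next member, Smg6. Smg6, at 14.1 ± 1.36 TPM, Smg1, at 12.2 ± 1.55 TPM, and Smg9, at 11.5 ± 1.44 TPM, also overlapped in that order. Smg6 was above Smg1 within each CTRL library. Smg8, at 8.13 ± 0.590 TPM, and Upf3a, at 7.36 ± 1.02 TPM, were the lowest and could not be ordered beyond their spread. At DT 1 DPA Upf1 stood at 74.5 ± 11.8 TPM and Upf3b, now second, at 73.2 ± 9.82 TPM, with overlapping libraries. Smg5 was at 61.7 ± 11.5 TPM and Upf2 at 46.8 ± 8.52 TPM. The lowest Upf2 library lay above the highest of the 5 members below it, Smg6, Upf3a, Smg1, Smg9 and Smg8. Upf3a moved to sixth place, at 21.2 ± 4.86 TPM. Across libraries its range overlapped those of Smg6 above it and Smg1 below it. Within each DT 1 DPA library, however, Upf3a lay below Smg6 and above Smg1. Summed over the 9 members, TPM was 296, 321 and 407 in the DT 1 DPA libraries, against 166, 164 and 198 in the CTRL libraries, so the groups were apart. Summed CPM was 793, 782 and 870 at DT 1 DPA, against 481, 521 and 564 in CTRL, which also did not overlap. The 2 units can differ between groups: Smg9 averaged 13.7 ± 1.84 TPM at DT 1 DPA and 11.5 ± 1.44 TPM in CTRL, but 20.1 ± 1.59 CPM and 19.6 ± 1.41 CPM.

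**Figure D3:**
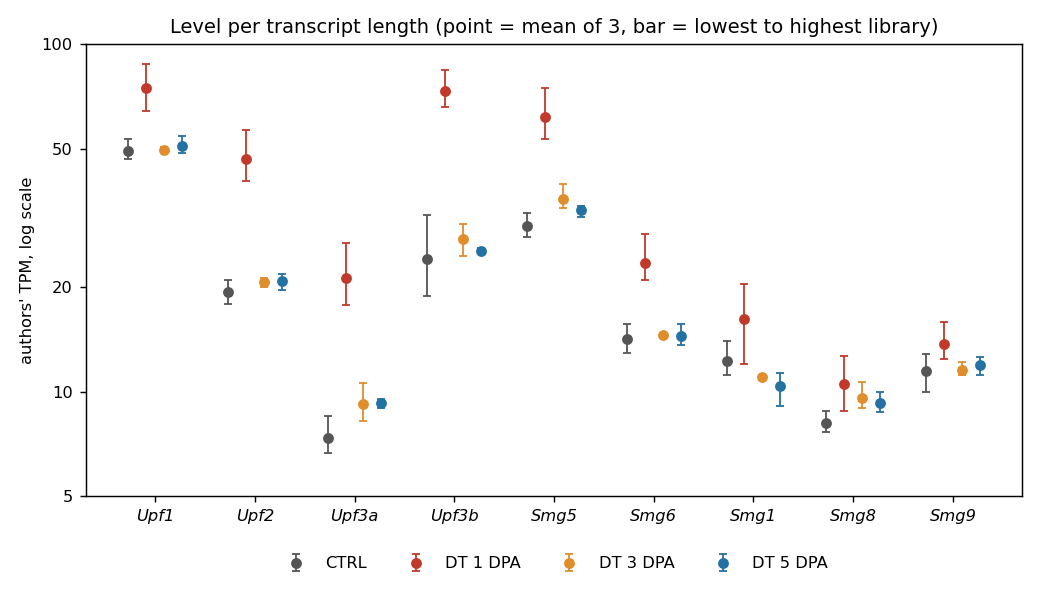
Deposited TPM of the 9 NMD factors on a log axis, with CTRL at the left of each gene and then DT 1, 3 and 5 DPA; each point is the mean of 3 libraries and each bar runs from the lowest to the highest library. Upf1 leads in CTRL at 49.1 TPM on average, and at DT 1 DPA Upf3b reaches 73.2 TPM beside Upf1 at 74.5 TPM.

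Ratios within a library show how the balance of the members shifted. Upf3b stood at 0.965 to 1.02 times Upf1 in the DT 1 DPA libraries, against 0.402 to 0.604 times in CTRL, in TPM. Upf2 stood at 0.607 to 0.646 times Upf1 at DT 1 DPA, against 0.382 to 0.412 times in CTRL, and Upf3a at 0.267 to 0.306 times Upf1, against 0.143 to 0.160 times. In all 3 ratios the groups were apart. Upf3b over Upf3a, the ratio of the stronger to the weaker activator, was 3.15 to 3.71 at DT 1 DPA and 2.75 to 3.79 in CTRL, which overlapped. Smg5 over Smg6 was 2.54 to 2.71 at DT 1 DPA, against 2.02 to 2.28 in CTRL, without overlap. Smg8 over Smg1 was 0.621 to 0.730 at DT 1 DPA and 0.546 to 0.788 in CTRL, with overlap, and Smg9 over Smg1 also overlapped. At the later times some ratios lay above CTRL without overlap. Upf3a over Upf1 was 0.167 to 0.211 at DT 3 DPA and 0.175 to 0.192 at DT 5 DPA. Smg8 over Smg1 was 0.809 to 0.964 and 0.799 to 0.963 at these times. Smg5 over Smg6 was 2.34 to 2.71 at DT 3 DPA. At DT 5 DPA Smg5 over Smg6 overlapped CTRL, as the other ratios did at both times. With 3 libraries against 3, a two-sided exact permutation test cannot go below p = 0.1, so these ratios are given as values.

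Genes with the pattern most like each member were found by the root mean square difference of log2 CPM over the 12 libraries, each gene centred on its own mean, among 10423 genes whose log2 CPM averaged 3 or more. Closest to Upf1 was Ulk1, an autophagy kinase, at 0.031, followed by Lmnb2 and Yaf2. Closest to Smg5 was the cochaperone gene Dnajc7, at 0.041, followed by the splicing factor Cdc5l and Cnot2, a subunit of the CCR4-NOT deadenylase. Smg6 was nearest to Jazf1, at 0.046, then Zfp59 and Pak4, and Smg1 to Ncoa1, at 0.056, then Usp34 and Helz. For Upf2 these were Leng1, at 0.068, Kansl3 and Zmym4, and for Upf3a the ubiquitin ligase gene Rnf40, at 0.078, Ppig and Zfp35. Upf3b was nearest to Zfp788, at 0.11, Zfp949 and BC005561. Among the members themselves, Upf1 and Smg6 were closest, at 0.070, Upf2 and Upf3a differed by 0.15, and the nearest member to Upf3b was Upf3a, at 0.20. These distances include the shared depth and composition of each library and are descriptions. They are not scaled to how much a gene varied, so genes that changed little can lie close. The root mean square of a member's own centred values was 0.19 for Upf1 and 0.25 for Smg6. It was 0.46 for Upf2, 0.51 for Upf3a and 0.62 for Upf3b.

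The neighbouring machinery was described from lists of pathway genes, and the part of the marker shifts in these differences was not tested either. Of 7 genes of the exon junction complex or associated with it, 6 rose at DT 1 DPA against CTRL, 4 at DT 3 DPA and 1 at DT 5 DPA, and none fell. The matching shares of all genes tested that rose were 29.2%, 10.2% and 5.87%. Casc3, a core subunit, had 127, 126 and 136 CPM at DT 1 DPA, against 64.4, 65.5 and 75.4 CPM in CTRL, and rose by 0.92 on the log2 scale (SE 0.097, edgeR adjusted p = 1.12e-05). At DT 3 DPA it had 132, 108 and 103 CPM and a log2 fold change of 0.74 ± 0.096 (edgeR adjusted p = 0.000322), still above all controls. At DT 5 DPA, at 0.47 ± 0.096 (edgeR adjusted p = 0.0135), its call ended without CTRL replicate 2 (0.43) or DT 5 DPA replicate 1 (0.44). Rnps1, a peripheral factor, rose at DT 1 DPA (0.83 ± 0.09) and at DT 3 DPA (0.53 ± 0.09), and so did the core helicase gene Eif4a3 (0.39 ± 0.054 and 0.35 ± 0.054), with edgeR adjusted p at most 0.00195. Rbm8a, another core subunit, rose at DT 1 DPA (0.37 ± 0.078). These 4 genes at DT 1 DPA, and Casc3, Rnps1 and Eif4a3 at DT 3 DPA, passed the test in all 19 other settings tried. With library sizes without the 50 most abundant genes and no TMM, the DT 1 DPA log2 fold change of Rbm8a was 0.25 and that of Xrn1, described next, was 0.22. Magoh, which may share reads with its paralog Magohb, was also called at both times, but its call was lost in 17 of the 19 settings at DT 1 DPA (0.085 to 0.27) and in 8 at DT 3 DPA. Pym1 completes the 6 called at DT 1 DPA and is named outside the naming rule. Its call there was lost in 5 of the 19 settings (0.29 to 0.50).

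Among 15 release factors, further NMD factors and decay enzymes, 9 rose and 1 fell at DT 1 DPA, 2 rose and 1 fell at DT 3 DPA, and 1 fell at DT 5 DPA. Of all genes tested, 29.2% rose and 22.4% fell at DT 1 DPA, 10.2% and 2.37% at DT 3 DPA, and 5.87% and 2.67% at DT 5 DPA. Exosc10, the nuclear exosome's ribonuclease, had 106, 96.1 and 114 CPM at DT 1 DPA, against 44.0, 42.1 and 47.6 CPM in CTRL, all treated libraries being far higher (log2 fold change 1.24 ± 0.075, edgeR adjusted p = 2.49e-07). Edc4, a scaffold for decapping, rose by 0.58, the release factor gene Etf1 by 0.51 and the decapping cofactor gene Dcp1a by 0.43 (edgeR adjusted p = 3.57e-05, 4.03e-05 and 0.000805). Dcp2, the catalytic decapping enzyme, was the 1 that fell, with 22.2 ± 2.08 CPM at DT 1 DPA against 29.2 ± 1.60 CPM in CTRL (SD, n = 3 each), a log2 fold change of -0.39 ± 0.10 (edgeR adjusted p = 0.00673). Dcp2 was chosen for naming after its values were seen. The calls of all of these genes held in all 19 other settings. At DT 3 DPA Etf1 was still higher (0.32 ± 0.063, edgeR adjusted p = 0.00491), and Pnrc2, an adaptor to decapping, was called higher (0.34 ± 0.072), a call that ended without DT 3 DPA replicate 1 (0.26). The falls of the NMD factor gene Nbas at DT 3 DPA (-0.25 ± 0.071, edgeR adjusted p = 0.0361) and of Xrn1, the exonuclease that degrades decapped mRNA, at DT 5 DPA (-0.32 ± 0.078, edgeR adjusted p = 0.0265) each ended in several settings that left out a library. For Nbas these were CTRL replicates 1 and 2, DT 3 DPA replicates 1 and 3 and DT 5 DPA replicate 2 (-0.24 to -0.26). For Xrn1 they were CTRL replicate 3 and DT 5 DPA replicates 1 and 2 (-0.27 to -0.32). A fit of the 2 groups alone also ended both calls (-0.26 for Nbas and -0.33 for Xrn1). A block for the replicate number ended that of Nbas (-0.25). Xrn1 had risen at DT 1 DPA against CTRL (0.34 ± 0.077, edgeR adjusted p = 0.00292). It had fallen at DT 3 DPA against DT 1 DPA (-0.59 ± 0.078, edgeR adjusted p = 0.000105). Both of these calls held in all 19 other settings.

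**Figure D4:**
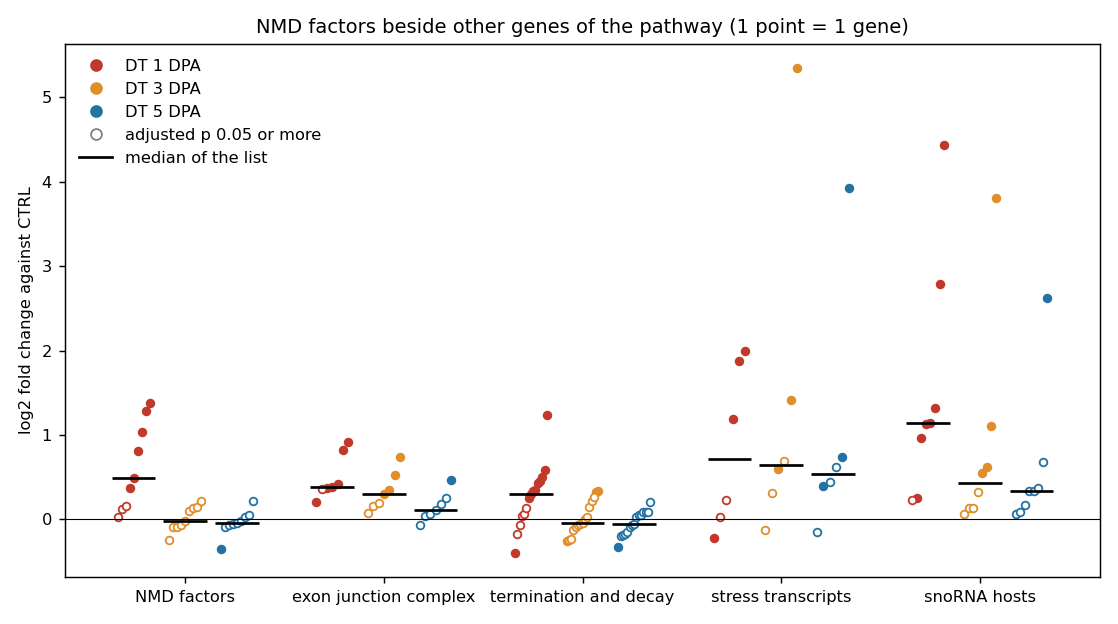
Log2 fold change against CTRL at DT 1, 3 and 5 DPA for the genes of the NMD set and of the other lists. These are the exon junction complex with associated factors, termination and decay, and the 2 lists of known NMD targets. Each point is a gene and each line the median of its list. The member median is 0.50 at DT 1 DPA and -0.015 at DT 3 DPA, and the exon junction median is 0.39 and 0.30.

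Transcripts known as NMD targets were also examined. They respond to other signals too, so their levels do not measure NMD activity. Of 8 snoRNA host transcripts, which are spliced, poorly translated RNAs removed by NMD, 7 rose at DT 1 DPA, 4 at DT 3 DPA and 1 at DT 5 DPA, and none fell. The shares of all genes tested that rose were 29.2%, 10.2% and 5.87%. Snhg15 had 49.4, 45.9 and 62.2 CPM at DT 1 DPA, against 2.47, 2.04 and 2.73 CPM in CTRL, a log2 fold change of 4.44 ± 0.29 (edgeR adjusted p = 9.59e-07). It remained above all controls at DT 3 DPA, with 46.3, 22.0 and 32.8 CPM (3.80 ± 0.29), and at DT 5 DPA, with 12.1, 14.4 and 18.2 CPM (2.62 ± 0.28). Snhg12 had 44.7, 41.4 and 45.2 CPM at DT 1 DPA, against 6.94, 5.86 and 6.14 CPM in CTRL (2.79 ± 0.20, edgeR adjusted p = 8.7e-07). Snhg1 (1.13 ± 0.12) and Snhg5 (1.32 ± 0.16) rose at DT 1 DPA as well, and 5 of the 8 fell at DT 3 DPA against DT 1 DPA, as did 24.7% of all genes tested. At DT 3 DPA Snhg1 and Snhg12 were still higher (0.62 ± 0.12 and 1.10 ± 0.19), Snhg12 by 0.74 without DT 3 DPA replicate 1, while the call of Snhg5 (0.55 ± 0.16) was lost in 13 of the 19 other settings.

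Of 6 stress transcripts known as NMD targets, 3 rose and 1 fell at DT 1 DPA, and 3 rose at DT 3 DPA and at DT 5 DPA. At DT 1 DPA 29.2% of all genes tested rose and 22.4% fell, and 10.2% and 5.87% rose at DT 3 and 5 DPA. Ddit3, a stress-induced transcription factor gene, was higher by 1.88 ± 0.13, 1.41 ± 0.13 and 0.74 ± 0.13 on the log2 scale at DT 1, 3 and 5 DPA, and passed the test in all 19 other settings at each time. Atf4, which controls the amino acid and integrated stress response, was higher by 1.19 ± 0.10 and 0.59 ± 0.10 at DT 1 and 3 DPA. At DT 5 DPA (0.40 ± 0.10, edgeR adjusted p = 0.0326) its call ended without CTRL replicate 1 or 3, DT 3 DPA replicate 3 or any DT 5 DPA library (0.31 to 0.46). It also ended in a fit of the 2 groups alone (0.39). Atf3 followed another time course, with 21.2, 22.5 and 12.6 CPM at DT 1 DPA, 283, 123 and 169 CPM at DT 3 DPA and 83.1, 84.1 and 48.4 CPM at DT 5 DPA, against 11.3, 2.14 and 0.998 CPM in CTRL. CTRL replicate 1 was the highest control. The DT 3 DPA libraries had the highest Atf3 levels (log2 fold change 5.35 ± 0.81, edgeR adjusted p = 0.00234). At DT 5 DPA Atf3 was called as well (3.93 ± 0.77, edgeR adjusted p = 0.0184). Its call there ended without CTRL replicate 2 (3.56) or DT 5 DPA replicate 1 (3.81), and in a fit of the 2 groups alone (3.91). Its call at DT 1 DPA (2.0 ± 0.74, edgeR adjusted p = 0.0496) was lost in 15 of the 19 other settings. Without CTRL replicate 1 the log2 fold changes of Atf3 were 3.55, 6.92 and 5.53 at DT 1, 3 and 5 DPA, and all 3 passed the test. The call of Tbl2 at DT 1 DPA was lost in 7 settings. Its log2 fold change was -0.22, and -0.12 without CTRL replicate 3. Gadd45a and Gadd45b were not called at any time.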

How the data were processed

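RNA sequencing of 12 islet libraries was analysed. Libraries were made with a stranded mRNA kit from column-purified RNA, per the labels' protocols. Per the file headers, the table that the authors deposited holds counts and TPM for every gene and library; 24 other columns of per-sample values were not used. Per the submitters' processing notes the genome build was mm10. Which aligner and counter were run, and whether reads were counted by strand, is not given in the sources used here.

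After edgeR's filterByExpr (minimum count 10) 17294 of 48709 genes remained. TMM gave the scaling. The model was edgeR's robust quasi-likelihood fit over all 12 libraries, with Benjamini-Hochberg adjustment over all genes tested and a threshold of 0.05. CPM values use the TMM-scaled library sizes. SE was taken from the F statistic. The fit was tested on simulated data. TPM served for levels and ratios of members, with no test. R 4.3.3 was used with DESeq2 1.42.0, edgeR 4.0.16 and limma 3.58.1. No pair of replicates agreed within sampling noise.

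The members and lists were chosen with earlier results of these data known. The 9 members were always named. Beside the 15 genes counted in the termination and decay list, 1 further gene is not reported here. Of each other list, up to 4 called genes of smallest p per comparison were named, with the 3 genes of most similar pattern per member that passed the test over the 4 groups, leaving out genes with Gm or Rik names. Other settings were a block for the replicate number, a fit of the 2 groups alone, DESeq2, RLE scaling, no filter, library sizes without the 50 most abundant genes, and each library left out in turn. Library sizes without those genes and with no TMM were added after seeing the data. In the 5 comparisons made, the deviations of same-number libraries from their group means were correlated. All 3 pairs lay above the limit of 0.1 for DT 5 DPA against DT 3 DPA alone (0.156 to 0.326). For DT 5 DPA against CTRL all 3 were negative (-0.465 to -0.108), and for DT 3 DPA against CTRL they ran from -0.294 to 0.065. The labels do not state a pairing.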

Additional observations from a re-analysis of the deposited data

Results flagged for a closer look

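For 7 members the level at DT 3 DPA differed from that at DT 1 DPA in the direct test between these times. This is a difference between 2 groups of libraries, and so between their contrasts with the shared, untreated CTRL group. The parts of the toxin and of the marker shifts in it were not tested. The log2 fold changes of DT 3 DPA against DT 1 DPA were -0.46 for Upf1, -1.05 for Upf2, -1.07 for Upf3a, -1.28 for Upf3b, -0.41 for Smg1, -0.65 for Smg5 and -0.56 for Smg6. All 7 passed the test in all 19 other settings, DESeq2 among them, and the highest adjusted p, 0.028 in edgeR, was that of Smg1. For Smg1 the DT 1 DPA libraries overlapped CTRL and the DT 3 DPA libraries lay below it.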

How the results depend on the processing

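The 6 members higher at DT 1 DPA passed the test in all 19 other settings, with log2 fold changes of 0.24 to 0.40 for Upf1, 0.91 to 1.07 for Upf2, 1.15 to 1.37 for Upf3a, 1.23 to 1.61 for Upf3b, 0.68 to 0.85 for Smg5 and 0.37 to 0.56 for Smg6, and the 7 lower at DT 3 DPA against DT 1 DPA did so as well. With the replicate number as a block the counts were again 6 higher and 7 lower, and the block changed no call of a member. Leaving out 1 library gave 0 to 1 members higher and 0 to 1 lower at DT 3 DPA against CTRL, and 0 to 1 lower at DT 5 DPA. The DT 5 DPA count was 0 with RLE scaling, with no filter, with only the 2 groups compared, and with library sizes without the 50 most abundant genes and no TMM, a setting chosen after seeing the data. That setting moved the median of all genes at DT 1 DPA against CTRL from -0.049 to -0.18 and the share of calls that were higher from 56.6% to 43.3%. At DT 3 DPA against DT 1 DPA it moved them from 0.041 to 0.15 and from 45.3% to 59.5%. Only values that passed no test in the main fit, with TMM and all 12 libraries, turned their sign. None passed with its sign turned. Among them, Upf3b at DT 3 DPA passed the test at 0.33 without CTRL replicate 3. With the setting of no TMM, the values that turned were Smg9 at DT 1 DPA (-0.094) and Upf2 at DT 5 DPA (0.0032). Smg8 at DT 3 DPA against DT 1 DPA did so with RLE (-0.011), without the 50 most abundant genes (-0.014) and with DESeq2 (-0.00970). With 1 library left out, the ranges that crossed 0 were -0.063 to 0.096 for Smg9 at DT 1 DPA, -0.12 to 0.012 for Upf2 and -0.044 to 0.33 for Upf3b at DT 3 DPA. At DT 5 DPA they were -0.098 to 0.016 for Upf2, -0.15 to 0.19 for Upf3b, -0.00028 to 0.066 for Smg5, -0.015 to 0.16 for Smg8 and -0.13 to 0.00099 for Smg9, and at DT 3 DPA against DT 1 DPA -0.092 to 0.074 for Smg8. Over all settings the count of genes higher at DT 1 DPA was 4 to 6 for the exon junction list, 7 to 9 for the termination and decay list, 6 to 7 for snoRNA hosts and 2 to 3 for stress transcripts. The cause of these changes was not tested. With 3 libraries a group, small differences such as those of Smg8 and Smg9 are not excluded, and RNA levels do not measure NMD activity.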
